A study of Sus scrofa with 50 samples.

Results

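Backfat, the subcutaneous fat of the back, was compared between 2 types of Korean minipig (Sus scrofa), called ET and L. The comparison took the libraries labelled backfat, 5 from ET animals and 4 from L animals, which are 9 of the 50 libraries of the study. The ET animals were S0235, S0242, S0276, S0309 and S0326, and the L animals were S0349, S0377, S0384 and S0385. The same 10 animals also gave brain, loin, lymph and tenderloin. The labels name the tissue, the type and the animal, and each library came from a separate animal; what the letters ET and L stand for, and the age, sex, genotype and feeding of the animals, are not given in the sources used here. All groups were of one species, and no treatment is named. The study set out to describe how transcript levels differ between the types.

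White fat stores triglyceride in adipocytes, each filled by 1 lipid droplet that is coated with perilipins. In pigs most fatty acids of the body are made in fat itself, from glucose and acetate, by an enzyme chain that ends in fatty acid synthase, elongases and the desaturase SCD. The stored lipid is released by lipases under adrenergic stimulation, which insulin opposes, and adipocytes secrete leptin and adiponectin. The cells sit in a matrix of collagens and proteoglycans, among progenitors, vessels and immune cells.

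The values are TPM (a share of each library's transcripts, scaled to a fixed sum and corrected for transcript length). They were summed by the closest Swiss-Prot protein, called a gene here. TPM keeps no read depth, so the depth behind each value is unknown and the precision rests on the spread between animals. In the 9 libraries 10847 to 12330 genes had 1 TPM or more, the top 10 genes held 12.1% to 26.4% of all TPM, and mitochondrially encoded genes held 5.76% to 22.1%, with overlapping ranges in the types. Values are given below in the order of the animals above.

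The fifth L animal, S0355, had a backfat library that stood apart, and it was left out of the main comparison. Its level of CKM, creatine kinase of muscle, was 23749 TPM, where the other 9 libraries had 0.0954 to 97.9. ADIPOQ, which encodes adiponectin, was at 3.33 TPM in it, against 182 to 6980. Skeletal muscle markers summed to 141853 TPM in it, against 20.52 to 539. The adipocyte markers summed to 687 to 22127 TPM in the other 9 libraries and to 885 TPM in S0355, which was above S0377, so that sum did not set S0355 apart. FABP4, which carries fatty acids inside fat cells, was at 274 TPM in S0377 and at 1109 TPM or more in the other 8.

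Of 12110 genes tested with limma on log2(TPM + 1), 912 were higher in ET (7.53%) and 126 were lower (1.04%), which makes 1038 called genes (8.57%). Calls were made at an adjusted p under 0.05. The lowest ET library lay above the highest L library in 1439 of all genes tested (11.9%), and the highest ET library lay below the lowest L library in 245 (2.02%). Of the called genes, 764 of those higher in ET and 112 of those lower had groups that did not overlap. The median log2 fold change over all genes tested was 0.29, and the changes below are to be read against that median. Median-ratio scaling of the libraries moved this median to 0.01 and gave 493 higher and 257 lower genes, so 65.7% of the calls were higher in ET against 87.9% without it. With S0355 included, 572 genes were higher in ET and 1 was lower. Leaving out 1 library gave 289 (without S0384) to 1227 (without S0276) higher genes, and 22 (without S0326) to 154 (without S0309) lower genes. It gave 436 and 44 without S0235, 359 higher genes without S0326, 485 and 61 without S0377, 27 lower genes without S0384 and 607 and 59 without S0385. The lower genes were also fewer without S0242 and S0349, at 60 and 81. Over 568 list genes tested, 141 were higher and 28 were lower in ET. The counts of called members in each list below are to be read against the 7.53% and 1.04% of all genes. Those 568 genes are counted once each, but some, such as ADIPOQ, belong to several lists, so the lists are not separate results. A gene was tested only at a mean of 1 TPM or more over the 9 libraries. A gene near 0 in 1 type was therefore tested only if it was higher in the other, which bears on the shares of lists with low members.

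Markers of adipocytes were higher in ET. Of 13 tested, 12 were called and all were called higher, against 7.53% of all genes, and the median log2 fold change was 3.60. ADIPOQ was at 3375, 2590.3, 1076, 6980.3 and 1706 TPM in ET and at 268, 182, 229 and 539 TPM in L. The lowest ET library was above the highest L library (log2 fold change 3.20, SE 0.50, adjusted p = 0.00668). PLIN1, the perilipin that coats the droplet of fat cells, was at 1098, 813, 362, 1011 and 794 TPM in ET and at 127, 12.7, 31.0 and 52.5 TPM in L. The groups were again apart, and S0276 was the lowest of the ET libraries and S0349 the highest of the L libraries (log2 fold change 4.20, SE 0.56, adjusted p = 0.00373). LGALS12, a galectin of the lipid droplet, was at 132 ± 43.1 TPM in ET and 9.78 ± 9.22 TPM in L (SD, n = 5 and 4; log2 fold change 3.98, SE 0.56, adjusted p = 0.00408). FABP4 was the most abundant marker and did not pass, at 11988, 4472, 6306, 5739 and 7932 TPM in ET and at 6814, 274, 6817 and 1109 TPM in L (log2 fold change 1.83, SE 0.83, adjusted p = 0.186). S0349 and S0384 were within the ET range of FABP4, and S0377 and S0385 were below it. PNPLA2 did not pass without S0235, S0242, S0309, S0326, S0377 or S0384 (adjusted p = 0.0513 to 0.0837), and PPARG did not pass with S0355 included (log2 fold change 2.75, adjusted p = 0.0596). In whole tissue, fewer cells of a type and less RNA per cell cannot be told apart.

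**Figure D1:**
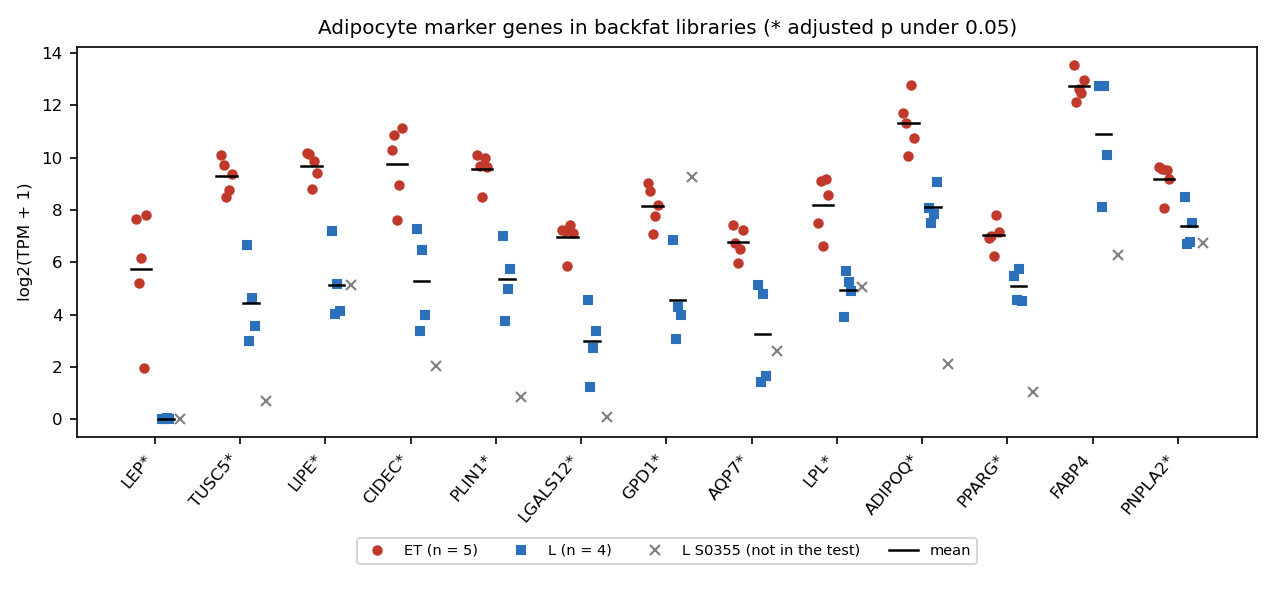
Levels of the 13 adipocyte markers tested in each backfat library, as log2(TPM + 1). Red circles are the 5 ET libraries, blue squares the 4 L libraries, grey crosses S0355, and black bars the means of the log2 values; a star marks an adjusted p under 0.05. LEP lies near 0 in every L library, and FABP4 is the only marker without a star.

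Of 14 hormones of fat and their receptors tested, 5 were higher in ET and none was lower. LEP, leptin, which signals the size of the fat store to the brain, was at 202, 36.2, 70.1, 2.92 and 220.4 TPM in ET and at 0, 0, 0.0281 and 0.0242 TPM in L. The L libraries were at or near 0, and S0309 was the lowest ET library (log2 fold change 5.74, SE 0.96, adjusted p = 0.00817). With a pseudocount of 0.1 the log2 fold change of LEP was 8.83. ADIPOR2, a receptor of adiponectin, was at 556 ± 240.2 TPM in ET and 54.4 ± 30.1 TPM in L (log2 fold change 3.28, SE 0.46, adjusted p = 0.00408). APLN, the peptide hormone apelin, was low in both types, at 5.11 ± 2.06 TPM in ET and 0.390 ± 0.437 TPM in L (log2 fold change 2.09, SE 0.38, adjusted p = 0.0110; 3.81 with a pseudocount of 0.1). CFD, adipsin, was the other abundant member. It was at 1030.3, 737, 916, 1287 and 1029.9 TPM in ET and at 809, 774, 655 and 945 TPM in L, the ranges overlapped, and it did not pass (log2 fold change 0.32, SE 0.23, adjusted p = 0.402). CFD and ADIPOQ are both abundant products of fat cells, and their log2 fold changes were 0.32 and 3.20.

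Lipid droplet proteins were higher in ET in 6 of 12 tested, with a median log2 fold change of 1.54. PLIN4, the perilipin of small new droplets, was at 2409, 297, 1174, 479 and 287 TPM in ET and at 200.1, 5.31, 41.5 and 6.12 TPM in L. S0235 and S0276 were above the other ET libraries, and the lowest ET library lay above S0349, the highest in L (log2 fold change 4.71, SE 0.99, adjusted p = 0.0184). CIDEC, which moves lipid from small to large droplets, was at 1208 ± 870.3 TPM in ET and 66.1 ± 67.6 TPM in L (log2 fold change 4.49, SE 0.89, adjusted p = 0.0153). FITM2, an enzyme of the endoplasmic reticulum needed to bud droplets, had a log2 fold change of 2.66 (adjusted p = 0.00589). PLIN2, the perilipin found on droplets of most tissues, changed less, at 144 ± 20.8 TPM in ET and 53.5 ± 17.6 TPM in L (log2 fold change 1.47, SE 0.25, adjusted p = 0.00908). PLIN2 did not pass with S0355 included (log2 fold change 1.09, adjusted p = 0.147). CIDEA, the most abundant member, was at 1558, 1545, 611, 1406 and 1969 TPM in ET and at 949, 126, 309.3 and 918 TPM in L. S0349 and S0385 were above the lowest ET library, S0276, and CIDEA did not pass (log2 fold change 1.62, SE 0.57, adjusted p = 0.0999).

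Genes of fatty acid synthesis had the highest median log2 fold change of the 25 pathway lists, 2.58, with 10 of 20 higher in ET and none lower. SCD, the desaturase that makes oleate, was at 317, 396, 21.1, 89.5 and 3087 TPM in ET and at 5.56, 0.959, 0.872 and 1.65 TPM in L. The groups did not overlap, and S0326 was far above the other ET libraries (log2 fold change 6.40, SE 1.11, adjusted p = 0.00902). When each gene was represented by its most abundant transcript alone, SCD did not pass (log2 fold change 4.76, adjusted p = 0.0973). THRSP, a nuclear protein that goes with lipogenic gene activity, was at 1440.4, 1393, 167, 1206 and 3775 TPM in ET and at 201, 5.12, 12 and 4.07 TPM in L. S0349 was above S0276, and the other L libraries were at 12 TPM or less (log2 fold change 6.01, SE 1.08, adjusted p = 0.0110). ELOVL6, which lengthens palmitate to stearate, was at 474 ± 332 TPM in ET and 9.21 ± 8.49 TPM in L (log2 fold change 5.41, SE 0.72, adjusted p = 0.00373). ME1, the malic enzyme that supplies NADPH, was at 61.3, 198, 16.0, 54.2 and 622 TPM in ET and at 2.79, 3.52, 2.89 and 1.58 TPM in L. S0326 led in ET again, and no L library came above 3.52 TPM (log2 fold change 4.69, SE 0.82, adjusted p = 0.00914).

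Further along the same chain, ELOVL5, an elongase of unsaturated fatty acids, had a log2 fold change of 3.88 (adjusted p = 0.00373). IDH1, the cytosolic isocitrate dehydrogenase, had 2.98 (adjusted p = 0.00828), and did not pass on its most abundant transcript (adjusted p = 0.127). PC, pyruvate carboxylase, was the most abundant member apart from THRSP, at 1256 ± 625 TPM in ET and 232 ± 204 TPM in L (log2 fold change 2.85, SE 0.69, adjusted p = 0.0298). PC did not pass without S0235, S0242, S0309, S0326, S0377 or S0384 (adjusted p = 0.0611 to 0.0947), nor after the rescaling described with the ribosomal genes (adjusted p = 0.0506). FASN, fatty acid synthase itself, is described because of its place in the chain and was chosen after its values were seen. It was at 31.8, 2735, 17.2, 461 and 3207 TPM in ET and at 45.9, 4.98, 7.08 and 10.3 TPM in L. In ET it ran from 17.2 to 3207 TPM, S0235 and S0276 lay within the L range, and it did not pass (log2 fold change 4.57, SE 1.47, adjusted p = 0.0754). Without S0276 it passed at a log2 fold change of 5.58. ACLY, SREBF1 and ACSS2 also did not pass, with log2 fold changes of 1.88, 1.68 and 2.03. ACACB, the acetyl-CoA carboxylase tied to oxidation, had the lowest estimate of the list, -0.06.

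**Figure D2:**
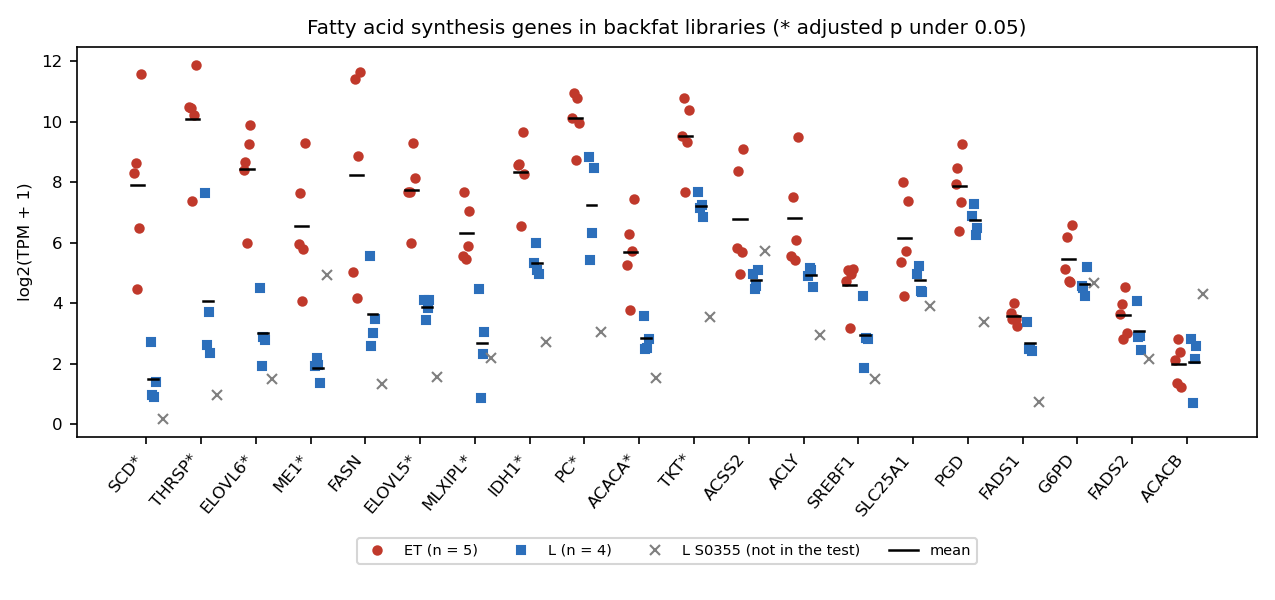
Levels of the 20 fatty acid synthesis genes tested in each backfat library, as log2(TPM + 1), ordered by log2 fold change. Red circles are ET (n = 5), blue squares L (n = 4), grey crosses S0355 and black bars the means of the log2 values; a star marks an adjusted p under 0.05. SCD, ELOVL6 and ME1 separate the types, while FASN spreads over the whole range within ET.

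Of 19 genes of fatty acid uptake and esterification tested, 8 were higher in ET and none was lower, and the median was 1.83. Without S0384, 3 were higher. LPL, the lipase that frees fatty acids from circulating lipoproteins, was at 181, 549, 98.4, 576 and 375 TPM in ET and at 14.0, 49.4, 36.8 and 28.9 TPM in L. The groups were apart, with S0276 the lowest in ET (log2 fold change 3.27, SE 0.53, adjusted p = 0.00711). DGAT2, which adds the last fatty acid to triglyceride, was at 477, 5088, 129, 1313 and 4419 TPM in ET and at 143, 11.5, 21.7 and 17.9 TPM in L. S0349 was above S0276, and the other L libraries were at 21.7 TPM or less (log2 fold change 5.25, SE 1.05, adjusted p = 0.0161); DGAT2 did not pass without S0384 (adjusted p = 0.0505). GPD1, which makes the glycerol backbone from glycolysis, was at 317 ± 156 TPM in ET and 38.8 ± 50.2 TPM in L (log2 fold change 3.60, SE 0.66, adjusted p = 0.0115), and it did not pass with S0355 included (log2 fold change 2.65, adjusted p = 0.151). AGPAT1, an acyltransferase of an earlier step, is no member of the list and was taken by the comparison of tissues given further on. It was at 461, 878, 202, 393 and 541 TPM in ET and at 99.99, 47.4, 47.1 and 28.5 TPM in L, with no overlap of the groups (log2 fold change 3.12, SE 0.43, adjusted p = 0.00408).

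The lipases and their cofactors were higher in ET in 5 of 9 tested and lower in none, with a median of 1.83. The number was 3 without S0235, S0242, S0309, S0326, S0377 or S0384. LIPE, hormone-sensitive lipase, was at 1165, 1126, 448, 929 and 682 TPM in ET and at 148, 15.2, 35.5 and 16.8 TPM in L. Every ET library lay well above S0349, the highest L library (log2 fold change 4.54, SE 0.58, adjusted p = 0.00373). LIPA, the lysosomal lipase, was at 315 ± 109 TPM in ET and 58.8 ± 18.6 TPM in L (log2 fold change 2.38, SE 0.31, adjusted p = 0.00373). PDE3B, the phosphodiesterase through which insulin lowers lipolysis, had a log2 fold change of 3.0 (adjusted p = 0.00793), and on its most abundant transcript it did not pass (1.94, adjusted p = 0.112). PNPLA2, the first lipase of triglyceride breakdown, was at 805, 750.3, 271, 731 and 579 TPM in ET and at 361, 104, 109 and 179 TPM in L, and S0349 was above S0276 (log2 fold change 1.82, SE 0.42, adjusted p = 0.0247). Under median-ratio scaling 3 members were called. PNPLA2 did not pass under median-ratio scaling (log2 fold change 1.51, adjusted p = 0.0535) or without S0235, S0242, S0309, S0326, S0377 or S0384 (adjusted p = 0.0513 to 0.0837).

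Among receptors that set lipolysis, 3 of 11 were higher in ET and none was lower. ADORA1, the adenosine receptor that restrains lipolysis, was at 69.4, 78.9, 20.4, 53.2 and 111 TPM in ET and at 7.23, 0.985, 1.99 and 0 TPM in L. The groups were apart (log2 fold change 4.49, SE 0.60, adjusted p = 0.00373). FFAR4, a receptor that long-chain fatty acids bind, was measured at 17.1 ± 6.40 TPM in ET and 1.05 ± 1.06 TPM in L (log2 fold change 3.24, SE 0.40, adjusted p = 0.00373). ADRB1, a receptor that starts lipolysis when bound by catecholamines, had a log2 fold change of 1.46 (adjusted p = 0.0306). ADRB1 did not pass without S0235, S0242, S0326, S0377, S0384 or S0385 (adjusted p = 0.0508 to 0.0995), nor when the libraries were rescaled without ribosomal protein and mitochondrial genes (adjusted p = 0.0579). NPR1, the natriuretic peptide receptor and the most abundant member, overlapped between the types and did not pass (log2 fold change 1.61, SE 0.59, adjusted p = 0.112).

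Cholesterol genes were higher in ET in 7 of 22 tested, with a median of 0.99, and none was lower. Without S0326 or S0384 the number was 4. LSS, which closes the sterol rings, was at 62.8, 161, 27.6, 71.4 and 222 TPM in ET and at 15.6, 3.29, 9.20 and 9.90 TPM in L. S0242 and S0326 led in ET, and the groups were apart (log2 fold change 3.19, SE 0.57, adjusted p = 0.0110). INSIG1, which holds back sterol synthesis, was at 41.3 ± 23.9 TPM in ET and 4.97 ± 0.761 TPM in L (log2 fold change 2.63, SE 0.40, adjusted p = 0.00616), and did not pass on its most abundant transcript (log2 fold change 2.08, adjusted p = 0.211). CYP51A1, an enzyme of the later steps, had a log2 fold change of 1.63 (adjusted p = 0.0115). EBP, the most abundant member, did not pass (log2 fold change 1.11, SE 0.46, adjusted p = 0.157).

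Of 19 transcription factors of fat cell formation, 3 were higher and 1 was lower in ET. PPARG, the receptor that drives and keeps the fat cell state, was at 121, 127, 74.5, 226 and 144 TPM in ET and at 43.9, 22.8, 53.0 and 22.3 TPM in L. The groups did not overlap, and the step was smaller than that of most adipocyte markers (log2 fold change 1.94, SE 0.35, adjusted p = 0.0115). CEBPA, which acts with PPARG, was at 207 ± 112 TPM in ET and 32.7 ± 36.1 TPM in L (log2 fold change 2.94, SE 0.56, adjusted p = 0.0135). MLXIPL, the factor that links glucose to lipogenic genes, was at 46.5, 204, 43.4, 58.2 and 130.3 TPM in ET and at 21.0, 0.825, 4.02 and 7.21 TPM in L. The ET libraries lay above 43 TPM and the L libraries at 21.0 or less (log2 fold change 3.66, SE 0.67, adjusted p = 0.0115). CEBPD, a factor of the first hours of fat cell formation that glucocorticoids raise, went the other way, at 79.7, 138, 88.5, 90.6 and 85 TPM in ET and at 106, 360.3, 239 and 328 TPM in L. S0242 in ET overlapped with L (log2 fold change -1.30, SE 0.35, adjusted p = 0.0409), and CEBPD did not pass without S0235, S0276, S0309, S0326, S0377, S0384 or S0385 (adjusted p = 0.0553 to 0.105), nor with S0355 included (log2 fold change -0.85, adjusted p = 0.366), with no filter on low values (adjusted p = 0.0531) or on its most abundant transcript (adjusted p = 0.0567). STAT5A, the most abundant member, did not pass (log2 fold change 0.51, SE 0.23, adjusted p = 0.188).

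In insulin signalling and glucose uptake, 4 of 19 were higher in ET and none was lower. TUSC5, which guides the glucose transporter GLUT4 to the surface, was at 1101, 845, 356, 438 and 656 TPM in ET and at 99.1, 6.94, 24.0 and 10.8 TPM in L. Every ET library was above S0349 (log2 fold change 4.83, SE 0.64, adjusted p = 0.00373). AKT2, the insulin-activated kinase, was at 314 ± 132 TPM in ET and 60.4 ± 23.0 TPM in L (log2 fold change 2.32, SE 0.37, adjusted p = 0.00692). SLC2A4, GLUT4 itself, was at 27.1, 92.3, 11.4, 32.8 and 136 TPM in ET and at 9.33, 0.633, 0.972 and 5.60 TPM in L. It ran over more than 10-fold within each type, with the lowest ET library just above the highest L library (log2 fold change 3.49, SE 0.74, adjusted p = 0.0188). SLC2A4 did not pass without S0384 (adjusted p = 0.0620), nor with S0355 included (log2 fold change 2.41, adjusted p = 0.248). INSR, the insulin receptor, had 0.58 and did not pass. CAVIN1, the abundant caveolar coat protein, did not pass (log2 fold change 0.27, SE 0.35, adjusted p = 0.673).

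Few glycolysis enzymes were called: 3 of 19 tested were higher, 1 was lower, and the median was 0.61. ALDOC, an aldolase best known from brain, was at 1559, 4299.8, 329, 1735 and 2176 TPM in ET and at 128, 34.2, 53.2 and 65.2 TPM in L. The groups were apart (log2 fold change 4.59, SE 0.63, adjusted p = 0.00408). HK2, the hexokinase of insulin-sensitive tissues, was at 23.0 ± 18.7 TPM in ET and 0.492 ± 0.332 TPM in L (log2 fold change 3.76, SE 0.43, adjusted p = 0.00324). PFKFB3, which makes the activator of phosphofructokinase, had a log2 fold change of 2.49 (adjusted p = 0.0114; 1.84 and 0.153 with S0355 included). PDHA1, a subunit of pyruvate dehydrogenase, was the member lower in ET, at 1197 ± 154 TPM in ET and 2072 ± 328 TPM in L (log2 fold change -0.79, SE 0.21, adjusted p = 0.0448). It did not pass without S0235, S0242, S0309, S0326, S0349, S0377, S0384 or S0385 (adjusted p = 0.0622 to 0.107), nor with S0355 included (log2 fold change -0.53, adjusted p = 0.411) or with no filter on low values (adjusted p = 0.0638). Without S0276, 6 members were higher and 1 was lower.

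Breakdown of branched-chain amino acids feeds acetyl-CoA and odd-chain units into fat synthesis. Of 21 members tested, 7 were higher in ET, none was lower, and all 21 estimates were above 0, with a median of 1.34. Over all 12110 genes tested, 8584 estimates were above 0. The number of members called higher was 15 without S0276 and 2 without S0384. MCCC2, a carboxylase of leucine breakdown, was at 98.4, 111, 29.6, 160 and 110.4 TPM in ET and at 12, 4.18, 4.06 and 19.2 TPM in L. The groups were apart, with S0276 lowest in ET (log2 fold change 3.32, SE 0.53, adjusted p = 0.00677). PCCB, a subunit of propionyl-CoA carboxylase, was at 91.9 ± 41.6 TPM in ET and 19 ± 2.0 TPM in L (log2 fold change 2.05, SE 0.39, adjusted p = 0.0134). The most abundant member, BCKDHA, did not pass (log2 fold change 1.29, SE 0.53, adjusted p = 0.151).

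Genes of mitochondrial energy use had smaller estimates. In fatty acid oxidation 7 of 20 were higher in ET (median 0.96), against 7.53% of all genes. In the tricarboxylic acid cycle 4 of 17 were higher (median 0.67). In the nuclear-encoded respiratory chain 1 of 25 was (median 0.64), which is not above the share of all genes. None was lower in these lists. Under median-ratio scaling the counts of higher members were 4, 0 and 0, and with S0355 included they were 1, 0 and 0. CS, citrate synthase, was at 259 ± 112 TPM in ET and 76.4 ± 15.1 TPM in L (log2 fold change 1.62, SE 0.38, adjusted p = 0.0263), and did not pass under median-ratio scaling (log2 fold change 1.31, adjusted p = 0.0709), with S0355 included (1.34, adjusted p = 0.104), after rescaling without ribosomal protein and mitochondrial genes (adjusted p = 0.0539) or without S0235, S0242, S0309, S0326, S0384 or S0385 (adjusted p = 0.0530 to 0.0789). Leaving out 1 library gave 1 (without S0326) to 14 (without S0276) members of fatty acid oxidation, with 3 without S0235 or S0377 and 2 without S0384. It gave 0 (without S0326 or S0384) to 8 (without S0276) of the cycle, with 1 without S0235, S0242 or S0309 and 2 without S0377 or S0385. Of the respiratory chain it gave 8 without S0276, 1 without S0235 and 0 without each of the other 7. ATP5F1B, the catalytic subunit of ATP synthase, and COX6C, a subunit of cytochrome c oxidase, did not pass (log2 fold changes 1.22 and -0.24).

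Fibrillar collagens and the enzymes that make them were higher in ET in 13 of 19 tested, with a median of 2.12 and none lower. Under median-ratio scaling the number was 9, and without S0326 it was 8. COL3A1, collagen III of soft tissue, was at 2369, 6724, 1675, 8272 and 5314 TPM in ET and at 312, 142, 322 and 49.4 TPM in L. The highest L library was more than 5-fold below the lowest ET library (log2 fold change 4.65, SE 0.61, adjusted p = 0.00373). COL1A1, the main chain of collagen I, was at 2468, 7876, 1272, 6419 and 6007 TPM in ET and at 261, 288, 303 and 84.1 TPM in L, with S0385 the lowest in L (log2 fold change 4.23, SE 0.57, adjusted p = 0.00376). On its most abundant transcript alone, the log2 fold change of COL1A1 was 6.37. COL1A2, the partner chain, was at 3167 ± 2012 TPM in ET and 206 ± 106 TPM in L (log2 fold change 3.88, SE 0.57, adjusted p = 0.00477). SERPINH1, the chaperone of newly made collagen, was at 411 ± 139 TPM in ET and 67.9 ± 22.3 TPM in L (log2 fold change 2.57, SE 0.31, adjusted p = 0.00358). LOX, the enzyme that cross-links collagen, had 0.21 and did not pass, and LOXL1 had -0.69.

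Of 21 small proteoglycans and other matrix proteins, 6 were higher and none was lower in ET. SPARC, which binds collagen and calcium, was at 4149, 8065, 2005, 6065 and 6172 TPM in ET and at 867, 275.9, 483 and 376.8 TPM in L. The groups were apart (log2 fold change 3.39, SE 0.43, adjusted p = 0.00373). LUM, lumican, which spaces collagen fibrils, was at 648 ± 135 TPM in ET and 99.98 ± 40.4 TPM in L (log2 fold change 2.75, SE 0.30, adjusted p = 0.00324). BGN, biglycan, had a log2 fold change of 1.59 (adjusted p = 0.00991; 0.0601 with S0355 included). DCN, decorin, is also made by fibroblasts and was among the most abundant genes. It was at 2415, 3076, 3238, 8389 and 2864 TPM in ET and at 1915, 3121, 2691 and 772 TPM in L, the groups overlapped, and it did not pass (log2 fold change 0.93, SE 0.46, adjusted p = 0.229). FN1, fibronectin, and FBN1, fibrillin, did not pass, at 0.54 and 0.31.

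Basement membrane genes were higher in ET in 12 of 18 tested, with a median of 1.55. Under median-ratio scaling, or with S0355 included, the number was 7, and it was 6 or 7 without S0235, S0242, S0309, S0326, S0377, S0384 or S0385. BCAM, a laminin receptor, was at 1512, 2564, 457, 1531 and 2071 TPM in ET and at 105, 5.33, 38.3 and 117 TPM in L. The groups were apart by more than 3-fold (log2 fold change 5.07, SE 0.79, adjusted p = 0.00668). ITGA7, the integrin partner in laminin binding, was at 407 ± 213 TPM in ET and 23.0 ± 21.0 TPM in L (log2 fold change 4.51, SE 0.74, adjusted p = 0.00750). COL4A1, the collagen of the membrane that wraps each fat cell and vessel, was at 773, 908, 345, 665 and 409 TPM in ET and at 135, 105, 124 and 89.3 TPM in L, again with no overlap (log2 fold change 2.37, SE 0.31, adjusted p = 0.00373). LAMA4, a laminin chain of fat and vessels, had a log2 fold change of 1.90 (adjusted p = 0.0135). Among matrix proteases and their inhibitors 4 of 17 were higher, with a median of 0.35. The number was 2 under median-ratio scaling or with S0355 included, and it was 1 without S0326 and 2 without S0235, S0276, S0309, S0377, S0384 or S0385. TIMP4, an inhibitor of metalloproteases that is found in fat, was at 15.6 ± 8.43 TPM in ET and 3.27 ± 1.48 TPM in L (log2 fold change 1.90, SE 0.38, adjusted p = 0.0163). The abundant MMP2 and TIMP2 did not pass (log2 fold changes -0.52 and -0.04).

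Growth hormone and IGF genes split. Of 15 tested, 4 were higher and 2 were lower in ET, and under median-ratio scaling 3 were higher and 4 were lower. GHR, the growth hormone receptor, was at 97.1, 75.8, 40.4, 307 and 122 TPM in ET and at 22.5, 24.0, 23.0 and 32.6 TPM in L. S0309 was the highest and the groups were apart (log2 fold change 1.98, SE 0.46, adjusted p = 0.0261). GHR did not pass on its most abundant transcript (log2 fold change 0.67, adjusted p = 0.556) or without S0235, S0326, S0349, S0377 or S0384 (adjusted p = 0.0519 to 0.0767). STC2, stanniocalcin 2, which blocks the release of IGF from its binding proteins, was at 20.6 ± 6.33 TPM in ET and 5.54 ± 2.19 TPM in L (log2 fold change 1.74, SE 0.31, adjusted p = 0.0110). IGFBP5, an IGF-binding protein, was lower in ET, at 123, 28.5, 128, 113 and 166 TPM in ET and at 288, 730.3, 462 and 257 TPM in L. S0242 was the lowest and S0377 the highest (log2 fold change -2.03, SE 0.49, adjusted p = 0.0295). IGFBP3, the main carrier of IGF in blood, was at 142, 213, 141, 317 and 92.7 TPM in ET and at 516, 704, 412 and 306 TPM in L, and S0309 was just above the lowest L library, S0385 (log2 fold change -1.47, SE 0.36, adjusted p = 0.0304). With S0355 included the log2 fold changes of IGFBP5 and IGFBP3 were -0.91 and -0.27 (adjusted p = 0.655 and 0.911). IGFBP5 did not pass without S0235, S0309, S0377 or S0384 (adjusted p = 0.0531 to 0.0872), and IGFBP3 without S0235, S0326, S0349, S0377 or S0384 (adjusted p = 0.0616 to 0.0787). Without S0235 or S0377, 2 members were higher and 0 were lower; without S0326 or S0384, 2 were higher and 1 was lower; without S0349, 2 were higher and 2 were lower.

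In the list of glucocorticoid and clock genes, 1 of 17 was higher and 1 was lower in ET, where 7.53% and 1.04% of all genes were. Nothing about the list is read from so few. PER3, a clock gene, was at 29.6 ± 12.4 TPM in ET and 5.86 ± 2.36 TPM in L (log2 fold change 2.12, SE 0.35, adjusted p = 0.00736). NR1D1, a clock repressor, was at 18.6 ± 4.64 TPM in ET and 40.6 ± 13.0 TPM in L (log2 fold change -1.06, SE 0.29, adjusted p = 0.0441), and did not pass without S0235, S0242, S0276, S0309, S0326, S0349, S0377 or S0385 (adjusted p = 0.0588 to 0.107) or with S0355 included (log2 fold change -0.84, adjusted p = 0.187), with no filter (adjusted p = 0.0534) or on its most abundant transcript (adjusted p = 0.0973). TSC22D3 and HSD11B1, the abundant glucocorticoid genes, had -0.09 and 0.06 and did not pass. The sources used here do not give the hour at which tissue was taken.

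Of the 25 pathway lists, ribosomal protein genes had the most members lower in ET, 17 of 36 tested against 1.04% of all genes, with none higher and a median of -0.90. RPL11, a protein of the large subunit, was at 731, 731, 832, 672 and 543 TPM in ET and at 1659.8, 1977, 1583 and 2186 TPM in L. Every L library was above every ET library (log2 fold change -1.40, SE 0.22, adjusted p = 0.00628). RPS27, of the small subunit, was at 2163 ± 703 TPM in ET and 5788 ± 1337 TPM in L (log2 fold change -1.44, SE 0.28, adjusted p = 0.0142). RPLP1, one of the most abundant, did not overlap between the types but did not pass, at 8173 ± 614 TPM in ET and 14487 ± 1811 TPM in L (log2 fold change -0.82, SE 0.24, adjusted p = 0.0548). Summed over the list, the TPM was 72699, 77679, 77942, 61971 and 58428 in ET and 114705, 145337, 107813 and 167503 in L, which differed at the smallest p the exact permutation test allows (two-sided p = 0.0159, adjusted over 21 library measures p = 0.0476). S0355 had 35811 TPM, below the ET range, and with it included no member was called and the estimates of RPL11 and RPS27 were -0.89 and -0.88 (adjusted p = 0.333 and 0.409). Leaving out 1 library gave 7 (without S0326) to 21 (without S0276) lower members. It gave 8 without S0377, S0384 or S0385, 9 without S0235 and 11 without S0242. Under median-ratio scaling 19 were lower. TPM sums to a fixed total, so a larger share of these genes leaves less for the others. When TPM was rescaled after leaving them and the mitochondrially encoded genes out, an alternative chosen after seeing the data, 480 genes were higher and 178 lower in ET, and 12 of the 13 adipocyte markers were called higher. Rescaling also lowered the calls of some lists, to 4 in fatty acid oxidation, 2 in the tricarboxylic acid cycle, 0 in the respiratory chain, 7 in the basement membrane, 2 among matrix proteases and 1 among macrophage markers.

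**Figure D3:**
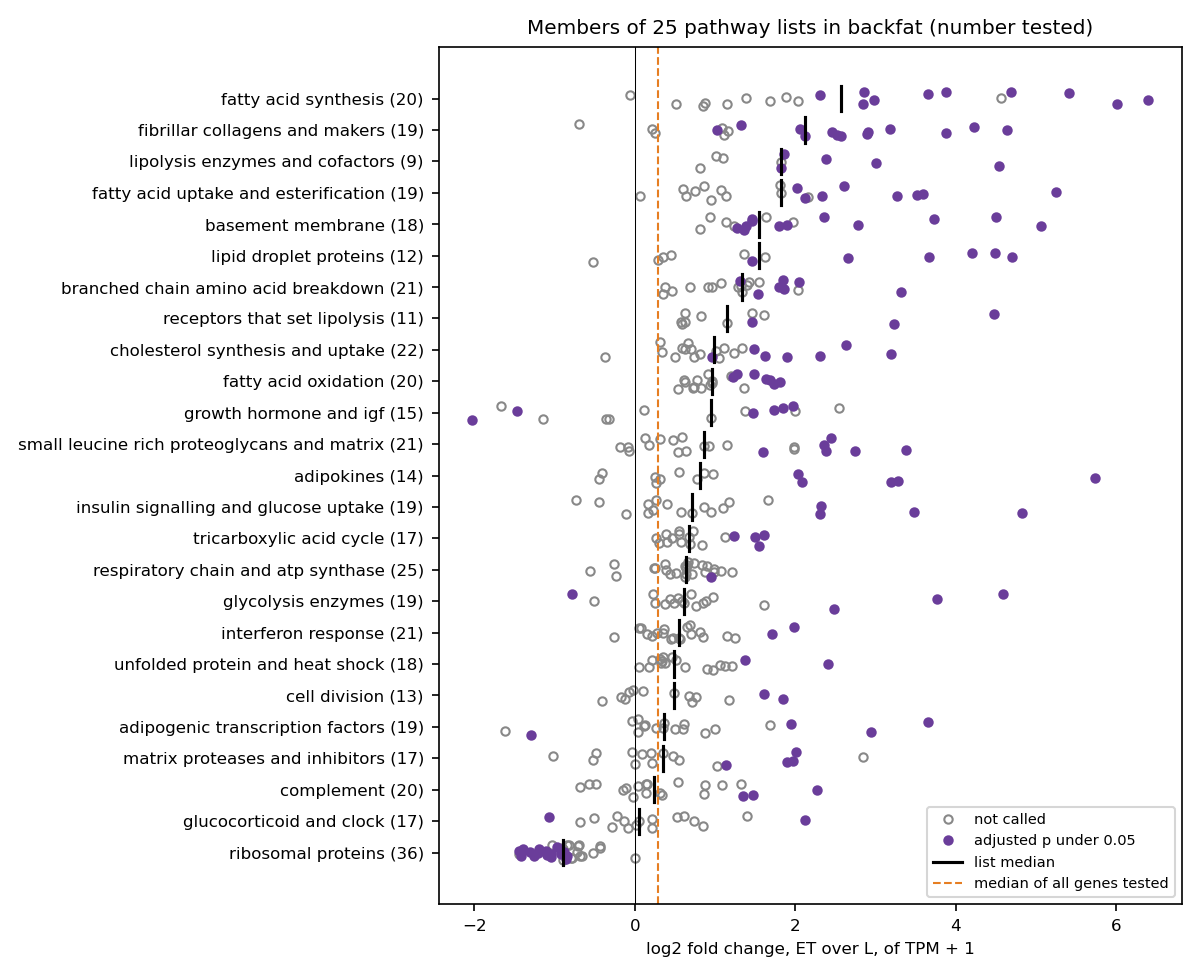
Log2 fold changes, ET over L, of the members of 25 pathway lists in backfat, ordered by the list median (black tick). Filled circles passed at an adjusted p under 0.05, open circles did not, the dashed line is the median of all genes tested (0.29) and the number tested is in brackets. Fatty acid synthesis (median 2.58) and fibrillar collagens (2.12) lie at the top and ribosomal proteins (-0.90) at the bottom.

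Markers of other cells were read in the same libraries to show what moved with these results, and the part of other cells in them was not tested. Progenitor and fibroblast markers summed to 6942, 15988, 6851, 22460.4 and 12374 in ET and 2927, 4457, 3934 and 1378 in L (adjusted p = 0.0476, exact permutation test). That sum is led by COL1A1, COL1A2 and DCN, and of 14 members 2 were higher, both of them collagen chains. DPP4, a marker of early progenitors, was lower in ET, at 1.05 ± 0.679 TPM in ET and 5.12 ± 3.45 TPM in L (log2 fold change -1.49, SE 0.39, adjusted p = 0.0386), and did not pass without S0235, S0242, S0326, S0349, S0377 or S0384 (adjusted p = 0.0613 to 0.0948) or with S0355 included (adjusted p = 0.0554) or on its most abundant transcript (adjusted p = 0.0556). PDGFRA, a receptor that marks progenitors, had 1.16 and did not pass. No endothelial marker of 13 was called by limma. They summed to 1526, 1161, 1181, 1471 and 905 in ET and 1569.7, 72.9, 777 and 3178 in L, so S0377 was more than 10-fold below and S0385 above every ET library. VWF and PECAM1, made by vessel lining, were likewise lowest in S0377 and highest in S0385, with log2 fold changes of 0.83 and 0.85 that did not pass (adjusted p = 0.662 and 0.504).

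Immune markers differed by list. Of 10 neutrophil markers in the list 7 were matched and 4 were tested, and all 4 were called higher. Markers near 0 in L met the filter on low values only where ET was high, so that share rests partly on the filter. The summed TPM of the list was 379, 648, 141, 183 and 234 in ET and 17.3, 4.66, 22.3 and 15.9 in L, with no overlap (adjusted p = 0.0476, exact permutation test). S100A12, a calcium-binding protein of neutrophils, made up most of it, at 334, 573, 116, 159.9 and 207 TPM in ET and at 13.9, 3.50, 18.5 and 12.4 TPM in L (log2 fold change 4.37, SE 0.51, adjusted p = 0.00324). S100A9 was at 20.1 ± 13.5 TPM in ET and 1.61 ± 0.450 TPM in L (log2 fold change 2.82, SE 0.40, adjusted p = 0.00422). CSF3R, the receptor of the neutrophil growth factor G-CSF, was the weakest of the 4 calls (log2 fold change 1.82, SE 0.51, adjusted p = 0.0495). CSF3R did not pass without S0235, S0276, S0326, S0349, S0377, S0384 or S0385 (adjusted p = 0.0720 to 0.120), with S0355 included (adjusted p = 0.0539), with no filter (adjusted p = 0.0580), under median-ratio scaling (adjusted p = 0.0726), on 1 transcript (adjusted p = 0.0672) or after rescaling (adjusted p = 0.0633). Without any 1 of those 7 libraries, 3 markers were called. Markers of T and NK cells summed to 286, 149, 114, 138 and 252 in ET and 33.3, 25.5, 16.1 and 62.7 in L (adjusted p = 0.0476, exact permutation test). Of 15 in the list 8 were tested, and 4 of these were called higher. The filter bears on this share too, since CD3E, given below, met it through its ET libraries. CD247, a chain of the T cell receptor complex, led the sum, at 136 ± 64.5 TPM in ET and 21.7 ± 20.4 TPM in L, and did not pass on its most abundant transcript (adjusted p = 0.206). CD3E, which defines T cells, was near the floor in both types, at 0.770, 3.23, 1.88, 2.08 and 2.68 TPM in ET and at 0.607, 0, 0 and 0 TPM in L (log2 fold change 1.42, SE 0.32, adjusted p = 0.0236; 3.64 with a pseudocount of 0.1), and did not pass without S0326, S0377, S0384 or S0385 (adjusted p = 0.0574 to 0.0767). Without S0384, 1 of these markers was called, and without S0326, S0377 or S0385, 2. CD4, CD8A and CD3D were not among the genes tested.

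Macrophage markers were higher in ET in 5 of 14 and lower in none, and their summed TPM was 1507, 669, 1368, 1644 and 1014 in ET and 370, 707, 400.5 and 337 in L (adjusted p = 0.0667). CD68, a lysosomal protein of macrophages, was at 54.4, 17.4, 48.7, 16.8 and 47.8 TPM in ET and at 6.55, 10.3, 3.68 and 6.12 TPM in L. The groups did not overlap (log2 fold change 2.21, SE 0.42, adjusted p = 0.0132). The number was 1 without S0384, 2 without S0235, S0309, S0326 or S0385, and 8 without S0242. It was 2 under median-ratio scaling and 3 with S0355 included. Red cell markers summed to 161, 176, 659, 101 and 159.7 in ET and 60.1, 6.36, 74.3 and 15.4 in L (adjusted p = 0.0476), led by the haemoglobin entries, which are uncertain because the family is near-identical. S0276, with 659 TPM, was the highest. Of 5 members 2 were higher, and 1 without S0242, S0377 or S0384. Mesothelial markers summed to 13.3, 7.79, 9.43, 41.1 and 7.39 in ET and 70.2, 66.1, 135 and 81.5 in L (adjusted p = 0.0476) and were lower in ET in 3 of 4. The members called were the keratins KRT8, KRT18 and KRT19, which are found in many epithelia, and the defining MSLN and UPK3B were not among the genes tested. Without S0235, S0326 or S0384, 1 was called, and with S0355 included none was. KRT19 did not pass without S0235, S0242, S0276, S0326, S0377, S0384 or S0385 (adjusted p = 0.0539 to 0.127) or with S0355 included (log2 fold change -1.75, adjusted p = 0.144), and it also lost its call with no filter, a pseudocount of 0.1 or 1 transcript (adjusted p = 0.0611 to 0.0637). Under median-ratio scaling none of the 7 sums called here passed, the adipocyte and ribosomal sums included (adjusted p = 0.0556 to 0.1). Without scaling all 7 had the smallest p that the exact permutation test allows in 9 libraries, 0.0159. Whether such sums pass after adjustment depends on how many measures reach that p, so the loss alone does not show smaller differences. With S0355 included the macrophage sum passed (adjusted p = 0.0417) while the mesothelial (adjusted p = 0.0556) and ribosomal sums (adjusted p = 0.333) did not.

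**Figure D4:**
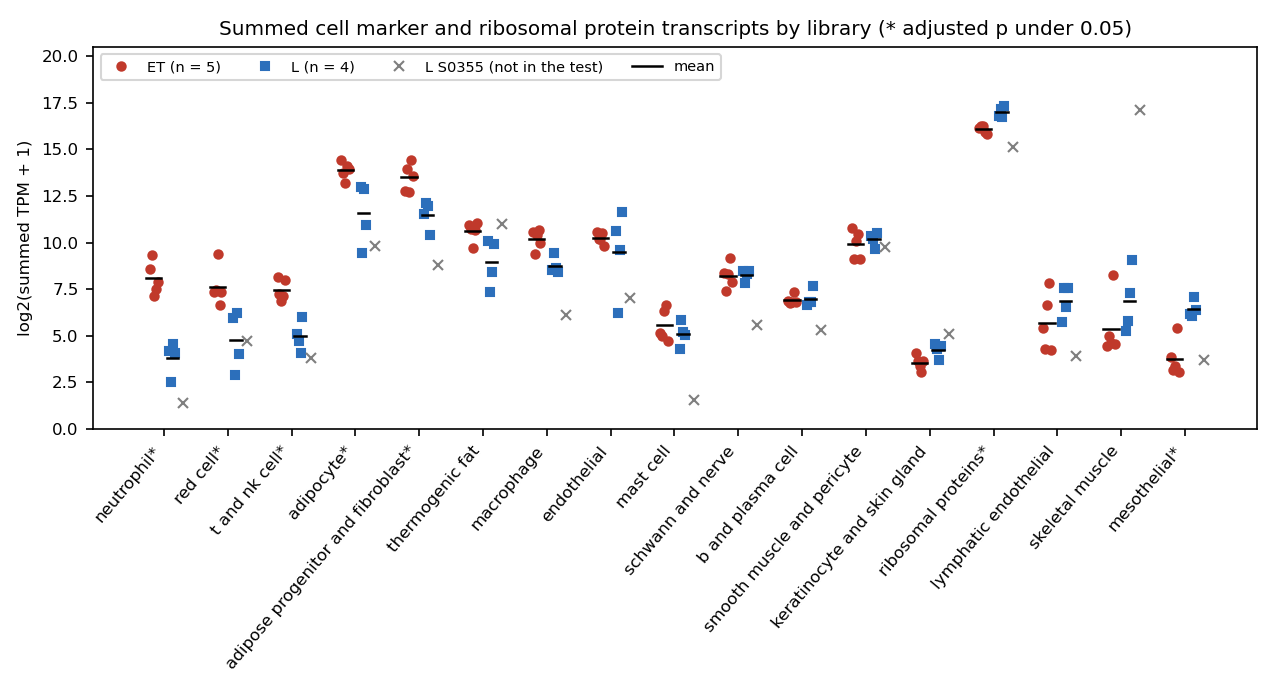
Summed TPM of each list of cell markers and of the ribosomal proteins in each backfat library, as log2(sum + 1), ordered by the difference of ET minus L. Red circles are ET (n = 5), blue squares L (n = 4), grey crosses S0355 and black bars the means of the log2 values; a star marks an adjusted p under 0.05 in the exact permutation test. S0355 lies far above all others for skeletal muscle, and S0377 is the lowest L library for endothelial and adipocyte markers.

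Skeletal muscle markers summed to 20.52, 31.2, 23.1, 302 and 22.9 in ET and 36.6, 54.0, 154 and 539 in L (adjusted p = 0.361, exact permutation test). S0309 in ET and S0385 in L were the highest, and all 17 estimates were below 0. MYL2, a slow muscle light chain, was called lower in ET, at 0.120, 0, 2.06, 1.04 and 0.00779 TPM in ET and at 3.78, 2.87, 60.2 and 22.5 TPM in L (log2 fold change -3.11, SE 0.75, adjusted p = 0.0290). It did not pass without S0235, S0242, S0326, S0384 or S0385 (adjusted p = 0.0584 to 0.0717) or with S0355 included (log2 fold change -5.10, adjusted p = 0.126), and was -4.97 with a pseudocount of 0.1. Lymphatic, mast cell, nerve and skin markers had no called member by limma (of 5, 3, 11 and 1 tested; 1 lymphatic marker was lower without S0309), and their sums did not pass (adjusted p = 0.385, 0.578, 0.873 and 0.0667). Smooth muscle and pericyte markers had 2 of 11 higher, with the pericyte gene CSPG4 at 15.5 ± 8.19 TPM in ET and 2.24 ± 1.59 TPM in L (log2 fold change 2.37, SE 0.47, adjusted p = 0.0149). The count was 1 without S0235, S0242, S0326, S0377 or S0384, under median-ratio scaling and with S0355 included. The summed TPM of this list was 1740, 564, 1084, 1405 and 555 in ET and 1327, 1156, 812 and 1455 in L. That sum did not pass (log2 difference -0.27, adjusted p = 0.667, exact permutation test), and 2 of the 11 estimates were below 0.

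Among B and plasma cell markers, CXCR5 was called higher and CD79A, a chain of the B cell receptor, lower, of 7 tested among 13 in the list. CXCR5 averaged below 1 TPM in L and was tested through its ET level. CD79A was at 16.8, 14.1, 14.3, 11.5 and 15.1 TPM in ET and at 27.8, 30.1, 23.4 and 38.3 TPM in L (log2 fold change -1.0, SE 0.22, adjusted p = 0.0212), and did not pass without S0326 or S0385 (adjusted p = 0.0516 to 0.0604) or with S0355 included (log2 fold change -0.58, adjusted p = 0.456). CXCR5 was at 3.03 ± 1.83 TPM in ET and 0.0698 ± 0.0751 TPM in L (log2 fold change 1.75, SE 0.41, adjusted p = 0.0261; 3.94 with a pseudocount of 0.1), and did not pass without S0235, S0242, S0326, S0349, S0377, S0384 or S0385 (adjusted p = 0.0505 to 0.0692). The summed TPM did not differ beyond the spread (114, 107, 111, 160.4 and 112 in ET and 100.3, 110.1, 110 and 202 in L; adjusted p = 0.873, exact permutation test).

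Complement, interferon, cell division and stress genes had 2 or 3 called members each, where 7.53% of all genes were called higher, and nothing is read from so few. Of 20 complement genes 3 were higher, among them C1QB, made by macrophages, at 323 ± 109 TPM in ET and 115 ± 39.6 TPM in L (log2 fold change 1.47, SE 0.30, adjusted p = 0.0167). C1QB did not pass without S0384 (adjusted p = 0.0508), with S0355 included (adjusted p = 0.0579), or when rescaled without ribosomal protein and mitochondrial genes (adjusted p = 0.0516). Interferon response genes were higher in 2 of 21. GBP1, an interferon-induced GTPase, was at 18.6 ± 7.84 TPM in ET and 4.79 ± 1.81 TPM in L (log2 fold change 1.71, SE 0.35, adjusted p = 0.0169) and did not pass without S0384 (adjusted p = 0.0591), while the abundant IFI6 and OAS1 did not pass (log2 fold changes 0.28 and 0.06). Of 13 cell division genes 2 were higher. RRM2, which supplies DNA building blocks, was at 2.72 ± 0.730 TPM in ET and 0.201 ± 0.131 TPM in L (log2 fold change 1.62, SE 0.26, adjusted p = 0.00675). With a pseudocount of 0.1 its log2 fold change was 3.29. RRM2 averaged below 1 TPM in L and was tested through its ET level. Of 18 chaperones and stress genes 2 were higher, CRYAB and HSPA5. Neither passed under median-ratio scaling (adjusted p = 0.0967 and 0.0535) or with S0355 included (adjusted p = 0.536 and 0.0578), nor with no filter (adjusted p = 0.0612 and 0.0605), on 1 transcript (adjusted p = 0.0685 and 0.0644) or after the rescaling (adjusted p = 0.0814 and 0.101). Complement genes called were 0 without S0384, 1 without S0326 and 1 with S0355 included. Interferon genes called were 0 without S0384 and 1 without S0235 or S0377, cell division genes 1 without S0235, S0377 or S0384, and stress genes 0 without S0235, S0326, S0349, S0377, S0384 or S0385.

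Genes known from heat-making fat were mixed, with 3 of 8 tested higher in ET. UCP3, an uncoupling protein best known from muscle, was at 365, 138, 190.1, 156 and 138 TPM in ET and at 110.4, 3.21, 6.49 and 5.63 TPM in L. S0349 was near the ET range and the other L libraries were at 6.49 TPM or less (log2 fold change 3.90, SE 0.79, adjusted p = 0.0166). UCP3 did not pass without S0384 (adjusted p = 0.0568) or with S0355 included (log2 fold change 2.85, adjusted p = 0.178). DIO2, the deiodinase that activates thyroid hormone, was at 2.02 ± 0.660 TPM in ET and 0.460 ± 0.137 TPM in L (log2 fold change 1.02, SE 0.27, adjusted p = 0.0401). DIO2 did not pass without S0235, S0276, S0326, S0349, S0377, S0384 or S0385 (adjusted p = 0.0599 to 0.101), under median-ratio scaling (adjusted p = 0.0770), with S0355 included (adjusted p = 0.0549) on its most abundant transcript (adjusted p = 0.0508) or after rescaling (adjusted p = 0.0686), and its log2 fold change was 1.89 with a pseudocount of 0.1. PRDM16 and EBF2, factors of brown and beige fat, had -0.03 and 0.13 and did not pass. The count of the list was 0 without S0384, 1 without S0235, S0326 or S0385, and 1 under median-ratio scaling and with S0355 included.

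Outside the lists, CA3 and SDR16C5 had the largest increases among genes of known identity. CA3, a carbonic anhydrase of muscle and fat, was at 534, 1149.6, 63.2, 371 and 383 TPM in ET and at 6.01, 0.707, 7.16 and 1.39 TPM in L. Every ET library lay above 60 TPM and every L library below 8 TPM (log2 fold change 6.5, SE 0.74, adjusted p = 0.00324). CA3 did not pass with S0355 included, where it was at 929 TPM (log2 fold change 4.93, adjusted p = 0.0798). SDR16C5, an enzyme that oxidises retinol, was at 604, 73.9, 141, 78.4 and 321 TPM in ET and at 5.62, 0.203, 2.05 and 2.76 TPM in L, with no overlap (log2 fold change 5.82, SE 0.65, adjusted p = 0.00324). RDH5, another retinol dehydrogenase, was at 148 ± 109.8 TPM in ET and 3.70 ± 4.11 TPM in L (log2 fold change 4.82, SE 0.82, adjusted p = 0.00865). CYP4B1, a cytochrome P450, was at 121, 87.1, 33.0, 4.82 and 182 TPM in ET and at 3.73, 0.00943, 0.578 and 0.0819 TPM in L, and S0309 was close to S0349 (log2 fold change 4.95, SE 0.89, adjusted p = 0.0108). KLB, the co-receptor that lets FGF21 act on fat, was at 37.6, 33.9, 11.13, 109 and 42.7 TPM in ET and at 3.95, 0.5263, 1.76 and 0.922 TPM in L, with no overlap (log2 fold change 3.91, SE 0.55, adjusted p = 0.00408). The largest estimate of all belonged to a putative uncharacterised protein and is not described further, since its identity is uncertain.

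The largest decreases were smaller than these increases. KRT8, a keratin of simple epithelia, was at 6.16, 2.64, 3.45, 21.8 and 0.978 TPM in ET and at 45.9, 34.6, 60.3 and 44.9 TPM in L. The groups were apart (log2 fold change -3.07, SE 0.57, adjusted p = 0.0121). RAB15, a small GTPase of endosomes, was at 0.982, 0.437, 1.57, 1.26 and 0.325 TPM in ET and at 5.0, 17.3, 5.79 and 5.83 TPM in L, and S0377 stood above the other L libraries (log2 fold change -2.19, SE 0.38, adjusted p = 0.00872). CBR2, a carbonyl reductase, was at 5.04, 18.2, 38.8, 31.3 and 10.1 TPM in ET and at 46.7, 1749.7, 79.4 and 206 TPM in L. Its L mean rested on S0377, and S0276 in ET was close to S0349 in L (log2 fold change -3.46, SE 0.92, adjusted p = 0.0411). CBR2 did not pass without S0235, S0242, S0309, S0326, S0377, S0384 or S0385 (adjusted p = 0.0586 to 0.0953); without S0377 the log2 fold change was -2.40. PRR5, a subunit of mTOR complex 2, was at 5.37 ± 3.06 TPM in ET and 19.9 ± 5.26 TPM in L (log2 fold change -1.83, SE 0.38, adjusted p = 0.0180) and did not pass without S0384 (adjusted p = 0.0524). KRT18, the partner of KRT8, had a log2 fold change of -2.07 (adjusted p = 0.0213) and did not pass without S0235, S0326 or S0384 (adjusted p = 0.0544 to 0.0658). With S0355 included none of these 5 passed, at log2 fold changes of -2.25, -1.64, -2.04, -1.07 and -1.32 (adjusted p = 0.159, 0.126, 0.453, 0.426 and 0.348). GALNT15, PAMR1, DENND2A, RAI2, SESTD1, ENO2 and CADM3 were also called lower (log2 fold changes -2.84 to -1.81). Each lost its call without S0235, S0242, S0326 or S0384 (adjusted p at most 0.111) and with S0355 included (adjusted p = 0.0615 to 0.453). PAMR1, DENND2A, RAI2, SESTD1 and CADM3, and CBR2 as well, also lost it with no filter on low values (adjusted p = 0.0505 to 0.0648), and the same genes but SESTD1 and CBR2, with ENO2, lost it on their most abundant transcript (adjusted p = 0.0514 to 0.334).

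The type difference in backfat was set against its mean over brain, loin, lymph and tenderloin by a test of the difference itself. This used 45 libraries. The backfat, loin and brain libraries of S0355 and the lymph and brain libraries of S0235 were left out because they stood apart from their tissue. The loin library of S0355 had CKM at 0.638 TPM against 17145 to 31866 in the other loin libraries, and ADIPOQ at 1139 against at most 4.20. The lymph library of S0235 had the T cell gene CD3E at 3.13 TPM against 406 to 750. The 2 brain libraries reached 30538 and 37999 TPM of MBP, a myelin protein, where the remaining brain libraries had 15.98 to 80.1.

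Of the 12110 genes, the difference in backfat lay above that in the other tissues in 3429 (28.3%) and below it in 404 (3.34%). Under median-ratio scaling these were 1469 and 1306. The other tissues were not alike. Fitted alone, loin had 652 genes higher and 2665 lower in ET, tenderloin 152 and 25, and brain and lymph 0. The mean of the other tissues thus moves with loin, and a difference above it need not come from backfat. The test of the difference and the comparison within backfat share the backfat libraries, so the genes called by each are not set against each other. The genes with the smallest p included CA3, SDR16C5, AGPAT1, TUSC5 and KLB. SDR16C5 and TUSC5 were below 1.1 TPM in every library used of the other tissues, and KLB was at most at 1.25 TPM. A difference of these genes could therefore show in backfat alone. The differences of SDR16C5 and TUSC5 were 5.83, SE 0.39, adjusted p = 4.8e-14 and 4.62, SE 0.40, adjusted p = 6.2e-11. The fit took 1 spread per gene over all 45 libraries. For CA3, SDR16C5, TUSC5, AGPAT1, KRT8 and RPL11 its SE was smaller than the SE within backfat alone. The p-values of this test, also those given below, therefore do not measure the spread between animals in backfat alone.

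CA3 and AGPAT1 were transcribed elsewhere too. In muscle, CA3 was at 1862 ± 556 TPM in ET loin and 535 ± 311 in L loin, and at 418 ± 124 and 1962 ± 1287 in tenderloin (SD, n = 4 or 5). Its type difference was 6.5 in backfat, 1.89 in loin and -2.08 in tenderloin, so the muscles pointed in opposite directions (backfat against the mean of the others 6.53, SE 0.53, adjusted p = 1.3e-11). AGPAT1 was between 8.77 and 63.1 TPM in the other tissues, with differences of -0.09, -0.45, -0.16 and -0.30 in brain, loin, lymph and tenderloin (backfat against their mean 3.37, SE 0.28, adjusted p = 2.0e-11). Neither gene differed by type elsewhere as far as it did in backfat.

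On the lower side were KRT8, RPL11, RPL19, RPS7 and MEF2B, whose calls within backfat were lost with S0355 included (adjusted p = 0.159 to 0.45). RPL11 differed by -1.40 in backfat and by 0.12, 0.13, 0.19 and -0.32 in brain, loin, lymph and tenderloin (-1.43, SE 0.19, adjusted p = 3.3e-07). Its level in L backfat, 1851 ± 281 TPM, was above that in ET lymph, 1411 ± 218 TPM. RPL19 and RPS7 gave differences of -1.36, SE 0.19, adjusted p = 5.8e-07, and of -1.33, SE 0.18, adjusted p = 6.7e-07. KRT8 was at 666 ± 200.5 TPM in ET brain, and differed by -3.07 in backfat and by 1.04 in loin (-3.50, SE 0.51, adjusted p = 1.7e-06). COL3A1 differed by 4.65 in backfat (SE 0.51), and by 2.86 in loin (SE 0.51) and 1.82 in tenderloin (SE 0.49), the same direction in the 3 tissues. SCD differed by 6.40 in backfat, and by 0.78 in tenderloin, 0.48 in loin, 0.04 in lymph and -0.22 in brain. In brain SCD was at 23.1 ± 7.60 TPM in ET and 27.1 ± 8.70 TPM in L.

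**Figure D5:**
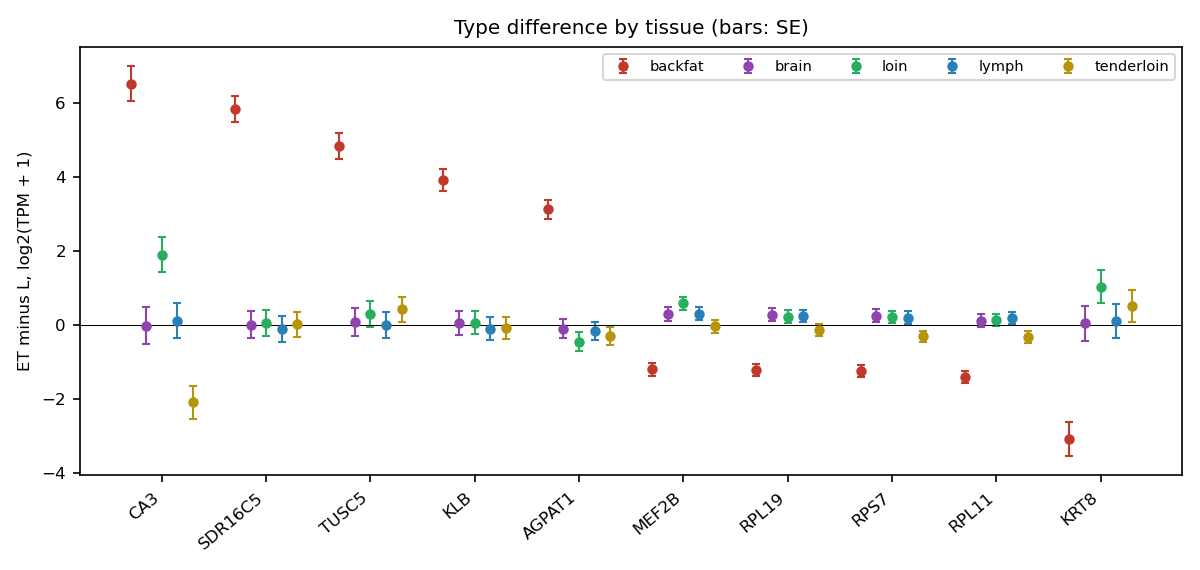
Type difference, ET minus L on log2(TPM + 1), in each of 5 tissues for 10 genes. These had the smallest p in the test of backfat against the other tissues, 5 in each direction. Points are differences of group means and bars are their SE from 1 fit over 45 libraries. Backfat (red) lies away from the other tissues for each gene, since the genes were chosen by that test. CA3 differs in loin and tenderloin with opposite sign.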

How the data were processed

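RNA of 9 backfat libraries (5 ET, 4 L) was compared. TRIzol extraction and a stranded mRNA kit were used, per the labels' protocols. The authors deposited TPM for 57085 assembled transcripts; the submitters' processing notes name Trimmomatic 0.36, Salmon 1.10.0 and the pig build Sscrofa11.1, with no stated role for the build. Each transcript took the Swiss-Prot entry of its best hit in the deposited annotation table (E at most 1e-10), and TPM was summed per entry, which used 32156 transcripts and gave 14413 genes (median identity 92.9%). Members of near-identical families are uncertain, since their transcripts may fall into several entries. No genome was used here, so no positions or sequences are given.

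Genes whose TPM averaged 1 or more were tested with limma 3.58.1 (R 4.3.3) on log2(TPM + 1), a scale that understates the change of low genes, with an intensity trend, two-sided, and Benjamini-Hochberg adjustment over all genes. In a data set simulated for this comparison, 100 genes were changed by 2 log2 units and another 100 by 4. The fit recovered 84 and 97 of them, with 6 false calls among the genes that were not changed. Whether the same shares would be recovered in the backfat libraries themselves was not tested. For 21 library measures an exact permutation test (two-sided, 126 divisions) was used, adjusted over the measures. Median-ratio scaling divides each library by the median ratio of its genes to their geometric mean.

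The comparison, the 41 gene lists (665 genes, 619 matched, 568 tested) and the tests were chosen with earlier results of these data known. Named genes were the 15 with the largest change in each direction at a mean of at least 5 TPM in the higher type, up to 4 called members of each list per direction, the 2 most abundant of each list, and 5 per direction of the tissue comparison; some of these are not reported here. Other members that did not pass, and FASN, were named after their values were seen. Animals pair libraries across tissues only, since each animal has 1 type.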

Additional observations from a re-analysis of the deposited data

Results flagged for a closer look

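In 29 of 418 groups of backfat libraries tested, 1 library lay far from the others of its type; chance flags about 1 in 20 groups. S0276 was the low library of ET for ADIPOR2 (159 TPM), APLN (1.54 TPM), FITM2 (26.4 TPM), CIDEA (611 TPM), ACAA2 (52.0 TPM), SDHA (55.5 TPM) and LGALS12 (57.7 TPM), and the high one for the interferon-induced chemokine CXCL10 (25.8 TPM) and for HBB (423 TPM). These were fat cell and mitochondrial genes on the low side, from 1 animal. S0242 was low for IGFBP5 (28.5 TPM) and PCNA (14.3 TPM) and high for CEBPD (138 TPM) and KRT17 (3.42 TPM). S0309 was high for DCN (8389 TPM), XBP1 (128 TPM), the muscle gene TNNT3 (49.3 TPM), the summed B and plasma cell markers (160.4 TPM) and the summed skeletal muscle markers (302 TPM). S0326 was high for CCNB2 (20.8 TPM).

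In L, S0349 was high for FITM2 (18.7 TPM), CSF3R (0.313 TPM) and CD3E (0.607 TPM). S0377 was high for RAB15 (17.3 TPM) and KRT17 (0.287 TPM) and low for KIT (1.59 TPM). S0385 was low for COL1A1 (84.1 TPM) and MMP2 (267 TPM), and high for PPM1K (7.66 TPM) and for the B and plasma cell sum (202 TPM).

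For 10 genes the type difference in backfat differed from its mean in the other 4 tissues by the test of that difference. On the log2 scale this was 6.53 for CA3, 5.83 for SDR16C5, 4.62 for TUSC5, 3.93 for KLB and 3.37 for AGPAT1. It was -3.50 for KRT8, -1.48 for MEF2B, -1.43 for RPL11, -1.36 for RPL19 and -1.33 for RPS7. In the backfat library of S0355, which no main comparison used, skeletal muscle markers summed to 141853 TPM.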

How the results depend on the processing

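Of 141 named genes that were called, 76 passed in each fit that left out 1 library, and none changed direction under any alternative. The genes that kept their call numbered 83 with S0355 included, 120 under median-ratio scaling, 110 of 140 on 1 transcript per gene, 115 of 135 after rescaling without ribosomal protein and mitochondrial genes, 123 with no filter on low values, 139 with a pseudocount of 0.1, 138 without the intensity trend and 129 of 129 at a mean of at least 5 TPM. The genes higher and lower in ET numbered 572 and 1 with S0355 included, 493 and 257 under median-ratio scaling, 569 and 89 on 1 transcript per gene, 480 and 178 after rescaling, and 289 to 1227 and 22 to 154 without single libraries. Distinct list members higher in ET numbered 75 to 178 without single libraries (141 with all). Those lower numbered 0 with S0355 included, 18 with no filter, 18 on 1 transcript per gene, 15 after rescaling, which leaves the ribosomal genes out, and 9 to 29 without single libraries (28 with all). With S0355 included, the number of genes at 1 TPM or more differed by 688.8 (adjusted p = 0.0417), and on the log2 scale the summed markers differed by 1.98 for macrophages, -0.87 for skin, -2.11 for mesothelium and -0.55 for ribosomal proteins. Under median-ratio scaling the sums differed by 2.02 for adipocytes, 1.69 for progenitors and fibroblasts, 3.97 for neutrophils, 2.19 for T and NK cells, 2.56 for red cells, -2.96 for mesothelium and -1.24 for ribosomal proteins, at adjusted p = 0.0556 to 0.1. The causes of these shifts were not tested, and the sums were not recomputed without single libraries.

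Backfat against the other tissues gave 1469 genes above and 1306 below under median-ratio scaling, and 61 below with all 50 libraries. With the animal as a replicate block it gave 3964 above and 465 below, against 3429 and 404 without the block, so the block moved neither count by more than 1.5 times. No paired analysis was possible within backfat because each animal belongs to 1 type. TPM keeps no read depth, so the counting error of low genes such as LEP in L cannot be given.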

Other observations

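The ET animals were not alike in how far their fat genes were above L. S0276 was the lowest of the 5 ET libraries for 11 of 13 adipocyte markers, 17 of 20 fatty acid synthesis genes, 19 of 21 genes of branched-chain amino acid breakdown, 17 of 20 of fatty acid oxidation, 15 of 17 of the tricarboxylic acid cycle and 22 of 25 of the respiratory chain. It was the highest for 16 of 21 interferon response genes. In L, S0349 was the highest library for 8 of 13 adipocyte markers. For endothelial markers, S0377 was the lowest of the L libraries in 13 of 13 and S0385 the highest in 12 of 13. These counts describe single animals and were not tested.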
